A study of Mus musculus with 6 samples.

Results

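A set of 10 genes used as markers of macrophages was followed, array by array, in lymphatic endothelial cells (LEC) of the mouse that had been cultured from a tumour or from normal skin. The genes were Ptprc, Cd68, Csf1r, Adgre1, Itgam, Tyrobp, Fcer1g, Lyz2, Cd14 and Mrc1. They were chosen by symbol, and all 10 were found among the 18193 genes with a probe set of a single gene. The value of a gene is that of its probe set with the highest mean over the 6 arrays. Tumour LEC came from C57BL/6 mice that had been injected with T241/VEGF-C/GFP fibrosarcomas, tumours of a mouse fibrosarcoma line that carries the lymphatic growth factor VEGF-C and green fluorescent protein (3 arrays). The tail skin of female C57BL/6 mice, 8 weeks old, gave the normal dermal LEC (3 arrays). The age and sex of the tumour-bearing mice are not given in the sources used here. Cells of both groups were grown on gelatin in EGM-2 medium and, per the labels, selected after culture on magnetic beads that carried antibodies to LYVE-1. The label text for the tumour cells runs into that for skin, so their last steps are not certain. The titles of the tumour arrays name tumour cells where the source descriptions name LEC, and the source descriptions are followed. The labels do not tell whether each replicate had its own culture or animal, and p-values therefore cover the spread of these arrays alone, which may be technical.

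Macrophages are tissue phagocytes of the myeloid lineage. They depend on signals through the receptor CSF1R, take up particles through scavenger, lectin and antibody receptors, and digest them in lysosomes. Several of their receptors for antibodies and other surface receptors signal through the small adaptors encoded by Tyrobp and Fcer1g. Some of the genes used as macrophage markers are also active elsewhere: the mannose receptor MRC1 is made by lymphatic endothelium, and LYVE-1, the antigen used for selection here, is carried by some tissue macrophages.

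The values are log2 expression, and a probe set was called above background where it exceeded the highest of 27 probe sets for absent bacterial RNA on the same array (3.40 to 3.71). The median of an array was 3.01 to 3.15 in tumour LEC and 2.99 to 3.01 in normal LEC, and tumour replicate 3 had both the highest median and the highest background limit. Lyve1 read 14.60 ± 0.43 in tumour LEC, against 14.00 ± 0.34 in normal LEC (SD, n = 3 each), and the lymphatic genes Prox1, Pdpn and Flt4 and the endothelial genes Pecam1 and Cdh5 were above background on all 6 arrays. Precision is limited by how few arrays there are. RNA was measured in bulk, so fewer cells of a type and less RNA per cell cannot be told apart.

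As a label, macrophage fits these cultures only in part. Of the defining leukocyte genes, Ptprc was above background on 1 array of 6, tumour replicate 1, and Itgam on none. Spi1, the gene of the myeloid transcription factor PU.1, was at background on all 6 arrays, between 2.14 and 2.28. Csf1r, Cd68, Adgre1, Fcer1g, Lyz2, Cd14 and Mrc1 were above background on all 6 arrays, and Tyrobp on 4. The number of markers above background was 9, 8 and 7 in tumour replicates 1, 2 and 3, against 7, 8 and 8 in normal replicates 1, 2 and 3.

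The markers did not separate tumour from normal LEC. They were highest as a set in a single tumour array. In tumour replicate 1 the median of the 10 genes lay 1.85 log2 units above their means over the 6 arrays, and 8 of the 10 genes had their highest value there. Tumour replicate 1 held the highest value of 22.8% of the 11105 tested genes that were above background on some array. The medians of tumour replicates 2 and 3 were -0.47 and -0.54, and those of normal replicates 1, 2 and 3 were -0.45, -0.40 and 0.31. Normal replicate 3 held the second highest value for 7 of the 10 genes, and was the highest normal array for 8 of them, against 27.0% of the same 11105 genes. The 2 genes that were not highest in tumour replicate 1 were Itgam, at background, and Cd14.

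**Figure D1:**
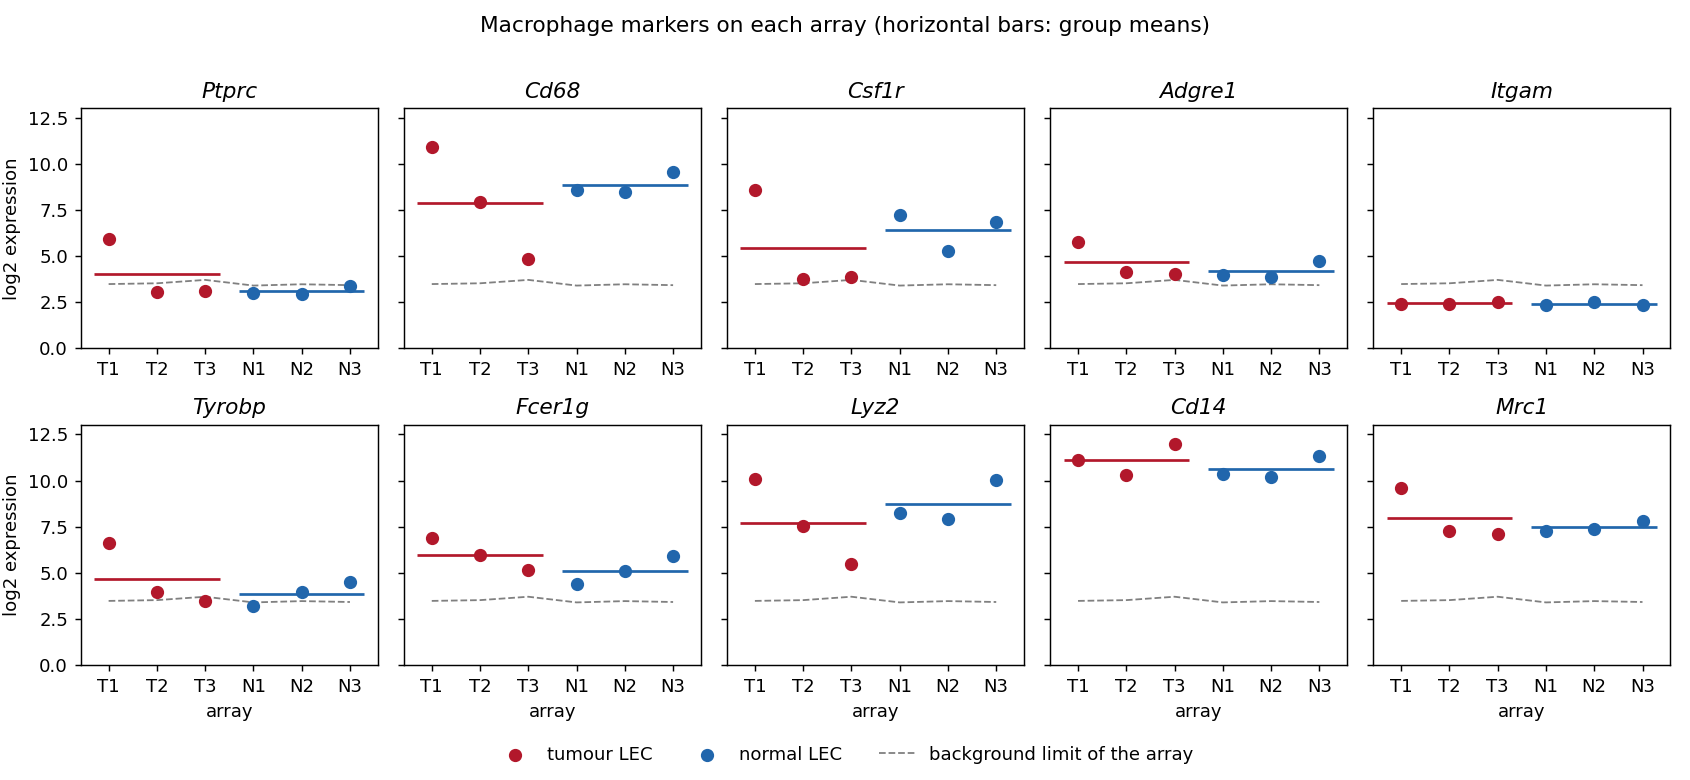
Log2 expression (vertical axes) of each of the 10 markers on the 3 tumour LEC arrays (T1 to T3, red) and the 3 normal LEC arrays (N1 to N3, blue), with group means as bars and the background limit of each array dashed. Tumour replicate 1 is the highest point for 8 genes, Cd14 is highest in tumour replicate 3, and Itgam lies under the limit on every array.

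Ptprc encodes CD45, the tyrosine phosphatase found on nearly all leukocytes. It read 5.92, 3.06 and 3.13 in tumour replicates 1, 2 and 3, against 3.02, 2.96 and 3.36 in normal replicates 1, 2 and 3. Tumour replicate 1 alone was above the limit, and the other 5 arrays lay within 0.40 of each other. All 3 normal arrays and tumour replicates 2 and 3 were at background, so no lower limit for the fold change can be given. The difference in means, 0.92 (adjusted p = 0.570, limma), rests on tumour replicate 1. A further Ptprc probe set was at background on all 6 arrays (2.29 to 2.41).

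Adgre1 encodes the surface receptor EMR1, a member of the adhesion GPCR family and a widely used marker of mouse macrophages. It read 5.77, 4.16 and 4.05 in tumour LEC, against 3.98, 3.88 and 4.71 in normal LEC. The groups overlapped, with tumour replicate 1 highest and normal replicate 3 next. Itgam encodes CD11b, the alpha chain of complement receptor 3. It read 2.40 to 2.52 in tumour LEC and 2.37 to 2.49 in normal LEC, below the limit throughout, and its mean was under the filter on low values, so it was not tested. Itgb2, the beta chain that pairs with it and with other leukocyte integrin chains, read 6.49, 4.03 and 4.13 in tumour LEC and 4.94, 5.72 and 6.46 in normal LEC, with tumour replicate 1 and normal replicate 3 at nearly the same level.

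Csf1r encodes the receptor for the growth factors CSF1 and IL-34, which macrophages need to survive. It read 8.58, 3.77 and 3.88 in tumour LEC, against 7.20, 5.25 and 6.82 in normal LEC. Tumour replicate 1 was 27.0-fold above the mean of the other tumour arrays on the log2 scale, the widest such gap among the markers. Tumour replicates 2 and 3 were close to background and below every normal array. The probe sets for this gene did not behave alike: the others read 3.73 to 4.36 and 2.99 to 3.99 over the 6 arrays, with differences of -0.09 and 0.21, where the brightest gave -1.01.

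Cd68 encodes a lysosomal glycoprotein and Lyz2 the lysozyme of phagocytes. Cd68 read 10.88, 7.90 and 4.82 in tumour LEC, against 8.56, 8.45 and 9.57 in normal LEC. It had the widest range of the markers within a group, 6.06 log2 units over the tumour arrays and 1.12 over the normal ones. Lyz2 read 10.06, 7.54 and 5.48 in tumour LEC, against 8.24, 7.94 and 10.01 in normal LEC. Both genes ran in the same order over the tumour arrays, with replicate 3 the lowest of all 6. Like Csf1r, both were lower in tumour replicates 2 and 3 than on every normal array. Together with Mrc1, 4 of the 9 markers above background somewhere had that pattern, as did 21.5% of the 11105 genes. Lyz2 has a close relative, Lyz1, whose probe set read 13.12, 10.83 and 8.89 in tumour LEC and 11.66, 10.80 and 12.90 in normal LEC, and probes may not tell these genes apart.

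Tyrobp and Fcer1g encode membrane adaptors that pass signals from activating receptors to the kinase SYK. Tyrobp read 6.60, 3.96 and 3.49 in tumour LEC, against 3.18, 3.95 and 4.49 in normal LEC. It was at background in tumour replicate 3 and normal replicate 1. Fcer1g read 6.87, 5.95 and 5.15 in tumour LEC, against 4.40, 5.09 and 5.89 in normal LEC. Its tumour values were spread over 1.72 and its normal values over 1.49 log2 units, and the groups overlapped.

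Mrc1 encodes the macrophage mannose receptor. It read 9.57, 7.25 and 7.09 in tumour LEC, against 7.28, 7.40 and 7.80 in normal LEC. Apart from tumour replicate 1, the other 5 arrays lay between 7.09 and 7.80, all above background, with tumour replicates 2 and 3 just under the lowest normal array. Cd14 encodes the co-receptor that hands bacterial lipopolysaccharide to TLR4. It read 11.11, 10.31 and 12.00 in tumour LEC, against 10.37, 10.18 and 11.33 in normal LEC. Tumour replicate 3 was highest and tumour replicate 1 fell between the normal arrays, unlike 8 of the other markers.

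In the comparison of 3 tumour with 3 normal arrays, 9 of the 10 markers entered the test and none passed a Benjamini-Hochberg adjusted p of 0.05 (limma), against 0.216% of the 12954 genes tested. None had an unadjusted p under 0.05 either, against 15.5% of all genes. For none of the 10 were the groups free of overlap, as they were for 32.4% of all genes. A p that misses the threshold does not show that the groups are alike, since the standard errors were wide. Cd68 differed by -0.99 (SE 1.51, adjusted p = 0.731), Csf1r by -1.01 (SE 1.43) and Lyz2 by -1.03 (SE 1.25). Differences for the others were smaller or of like size and positive: Ptprc 0.92 (SE 0.81), Fcer1g 0.86 (SE 0.56, adjusted p = 0.493, the lowest of the markers), Tyrobp 0.81 (SE 0.88), Cd14 0.51 (SE 0.52), Mrc1 0.47 (SE 0.70) and Adgre1 0.47 (SE 0.53). Over all 10 markers the median difference was 0.47, against 0.03 over all genes tested.

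**Figure D2:**
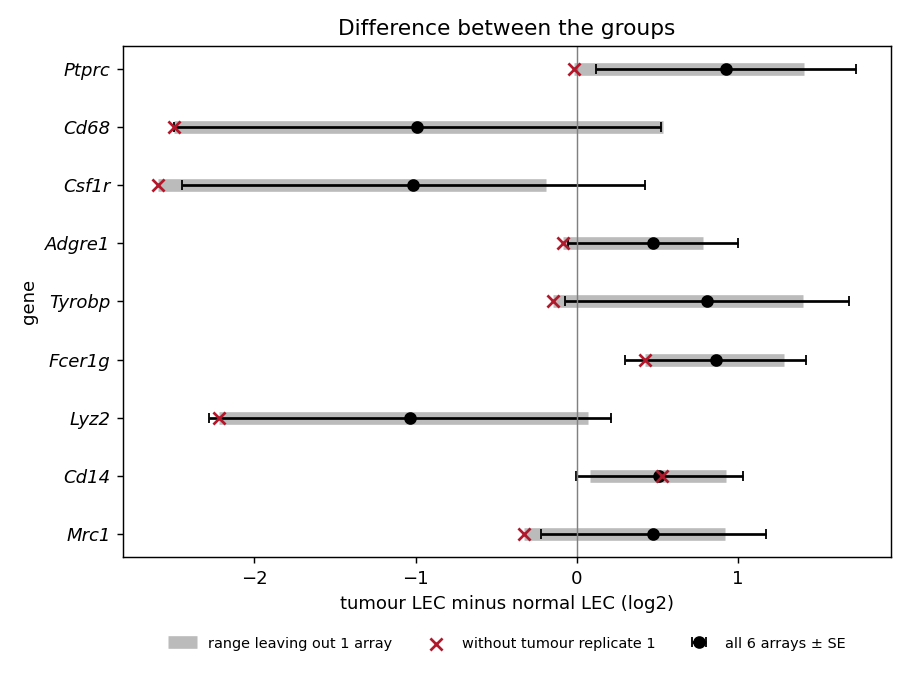
Difference between tumour and normal LEC (log2, horizontal axis) for the 9 tested markers, with all 6 arrays (black points, bars are SE), without tumour replicate 1 (red crosses) and the range over leaving out each array in turn (grey). Without tumour replicate 1 only Fcer1g and Cd14 lie above 0, and Ptprc is then at background on every array.

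Several of these values turned on single arrays. Without tumour replicate 1 the differences were -0.08 for Adgre1, -0.15 for Tyrobp and -0.33 for Mrc1, where all 6 arrays gave positive values, and Ptprc was at background on all 5 arrays left. Fcer1g and Cd14 stayed positive, at 0.42 and 0.53. Those of Cd68, Csf1r and Lyz2 became -2.50, -2.60 and -2.22, and none passed (adjusted p = 0.325, 0.177 and 0.332, limma). Over 15 alternatives the adjusted p of Csf1r ran between 0.177 and 0.955, that of Cd68 between 0.325 and 0.869 and that of Lyz2 between 0.332 and 0.978. The median over the 10 markers was -0.12 without that array, and between 0.30 and 0.78 without any other. Without tumour replicate 3, Cd68 differed by 0.53 and Lyz2 by 0.07. Csf1r differed by -0.19 without tumour replicate 2 and by -0.25 without tumour replicate 3. Cd14 differed by 0.08 without tumour replicate 3.

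Promoters of 4 markers that were highest in tumour replicate 1 and held a motif match are shown to give their sequence context. The window of Fcer1g, also highest there, and a second Ptprc window are not printed. The RefSeq table of build GRCm38.p6 (windows of 250 bases before and 50 after a gene's start) held 7 windows of 6 markers. The motifs searched, on both strands, were GAGGAA and GGAAGT, forms of the purine-rich core that PU.1 and other ETS factors bind. They share the letters GGAA and can overlap in a longer match. Among all 32851 windows 28.3% held the first, 23.8% the second and 43.4% either. These shares are per window, while the marker counts that follow are per gene, over all its windows. Of the 6 markers 4 held GAGGAA (Ptprc, Mrc1, Itgam and Cd68), 4 held GGAAGT (Ptprc, Mrc1, Lyz2 and Cd68) and Fcer1g held neither in this window. Capitals mark the matches on either strand. The windows lie at chr1:138175256-138175555 on the minus strand for Ptprc, chr11:69666121-69666420 on the minus strand for Cd68, chr10:117282223-117282522 on the minus strand for Lyz2 and chr2:14229164-14229463 on the plus strand for Mrc1, each printed 5′ to 3′ along the gene.
Ptprc: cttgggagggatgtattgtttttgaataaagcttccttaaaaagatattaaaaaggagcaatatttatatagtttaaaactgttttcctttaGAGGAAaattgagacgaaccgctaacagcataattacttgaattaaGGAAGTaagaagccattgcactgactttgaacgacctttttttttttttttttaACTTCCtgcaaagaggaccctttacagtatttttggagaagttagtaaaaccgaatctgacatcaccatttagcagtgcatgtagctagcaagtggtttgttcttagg
Cd68: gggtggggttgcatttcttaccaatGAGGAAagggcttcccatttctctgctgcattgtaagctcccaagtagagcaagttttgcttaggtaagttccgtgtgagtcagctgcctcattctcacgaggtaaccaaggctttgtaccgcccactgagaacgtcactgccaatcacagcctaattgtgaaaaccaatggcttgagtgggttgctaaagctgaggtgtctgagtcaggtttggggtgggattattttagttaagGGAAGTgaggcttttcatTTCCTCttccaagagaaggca
Lyz2: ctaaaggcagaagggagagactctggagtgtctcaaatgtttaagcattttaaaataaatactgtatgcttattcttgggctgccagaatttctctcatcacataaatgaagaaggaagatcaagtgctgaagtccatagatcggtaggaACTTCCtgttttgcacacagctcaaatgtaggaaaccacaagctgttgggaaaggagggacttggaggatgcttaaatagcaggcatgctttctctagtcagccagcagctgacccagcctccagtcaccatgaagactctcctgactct
Mrc1: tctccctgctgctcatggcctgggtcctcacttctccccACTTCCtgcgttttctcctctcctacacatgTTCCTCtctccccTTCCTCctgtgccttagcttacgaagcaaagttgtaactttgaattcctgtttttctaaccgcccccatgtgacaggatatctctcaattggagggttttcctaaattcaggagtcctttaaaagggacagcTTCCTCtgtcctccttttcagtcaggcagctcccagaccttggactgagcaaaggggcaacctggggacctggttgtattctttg
A match is a description of these letters, not of binding. Itgam held GAGGAA 3 times and was at background on all arrays.

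Genes listed with the adaptors were mostly at background. The list held 24 receptor and signalling genes around TYROBP and FCER1G, not all of them direct partners. Of these, 22 had a probe set of their own, 14 of them at background on all arrays. Of the 22, 11 entered the test and none passed, and the median difference over the 22 was 0.10. Among those with signal, the kinase gene Syk read 4.58, 3.81 and 4.65 in tumour LEC and 7.06, 6.78 and 6.02 in normal LEC, a difference of -2.27 (SE 0.36, adjusted p = 0.0853). Plcg2, the phospholipase downstream of SYK, differed by -1.83 (SE 0.56) and the phosphatase gene Inpp5d by 1.01 (SE 0.50). Clec4d, a lectin receptor that pairs with FCER1G, read 8.89, 6.00 and 6.37 in tumour LEC and 8.83, 7.62 and 10.65 in normal LEC. A pair of antibody receptors, named after their values were seen, were highest in tumour replicate 1: Fcgr3 read 7.10, 3.92 and 3.30 in tumour LEC and 3.47, 3.71 and 5.17 in normal LEC, and Fcgr2b 6.42, 4.86 and 4.46 in tumour LEC and 4.33, 4.33 and 4.83 in normal LEC. Trem2 was at background on all arrays.

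Of the CSF1R ligands, Csf1 had signal in both groups and Il34 did not. Csf1 read 11.01 ± 0.48 in tumour LEC, against 10.66 ± 0.19 in normal LEC (SD, n = 3 each), while Il34 was at background on all 6 arrays. Of the 11 genes of this list on the array 7 entered the test and none passed, and the median over the 11 was 0.08. Runx1, a transcription factor of blood cell formation, read 4.83 ± 0.57 in tumour LEC, against 7.42 ± 0.36 in normal LEC (SD, n = 3 each), a difference of -2.60 (SE 0.34, adjusted p = 0.0701). Irf8, a myeloid transcription factor, read 7.83, 7.60 and 7.60 in tumour LEC and 3.47, 6.74 and 6.63 in normal LEC, with normal replicate 1 apart from the others. Maf and Cebpb had signal on all arrays and differed by 0.81 (SE 0.42) and -0.36 (SE 0.28).

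The partners of CD14 in sensing lipopolysaccharide were present in both groups. Tlr4, the signalling receptor, read 8.53 ± 0.76 in tumour LEC, against 8.89 ± 0.38 in normal LEC, and Ly96, its MD-2 subunit, 8.36 ± 0.53 in tumour LEC, against 7.42 ± 0.50 in normal LEC (SD, n = 3 each). Lbp, the carrier that loads CD14, read 11.53, 8.16 and 7.56 in tumour LEC and 11.56, 9.56 and 10.75 in normal LEC. Among the signalling genes Traf6, a ubiquitin ligase, differed by 0.43 (SE 0.17, adjusted p = 0.317, limma), while the kinase gene Irak1 and the adaptor gene Tirap differed by 0.01 (SE 0.12) and -0.00 (SE 0.26). Of the 13 genes on the array 10 entered the test and none passed, and the median difference over the 13 was 0.06. Among the partners of ITGAM, Fermt3, an activator of integrins in blood cells, read 7.11, 3.94 and 3.73 in tumour LEC and 3.71, 3.00 and 4.19 in normal LEC. Of the 9 genes on the array 4 entered the test and none passed, and the median over the 9 was 0.13. The adhesion ligands Icam1 and Icam2 differed by 0.59 (SE 0.54) and 0.62 (SE 0.51).

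Scavenger and lectin receptors went several ways. Of 19 on the array 12 entered the test and none passed, and the median over the 19 was 0.05. Stab1, a scavenger receptor of lymphatic endothelium and some macrophages, read 12.93, 11.11 and 11.78 in tumour LEC and 12.05, 10.90 and 12.05 in normal LEC. Scarb1, a lipoprotein receptor, differed by 0.08 (SE 0.21) and Scarb2, a lysosomal membrane protein, by -0.65 (SE 0.29). Mrc2, the collagen uptake receptor of the same family as Mrc1, was at background on all 3 tumour arrays and read 8.76, 6.57 and 6.40 in normal LEC, at least 12.7-fold lower in tumour LEC (adjusted p = 0.0863, limma). Fibroblast markers moved the same way: all but Thy1 of the 10 had lower means in tumour LEC, and the summed log2 level of the list was 44.7 to 49.2 in tumour LEC and 77.5 to 107.7 in normal LEC. Their part in the Mrc2 values was not tested. Col1a2, a collagen gene and the single gene of all these lists that passed, fell by 9.38 on the log2 scale (adjusted p = 0.0276, limma). It was above background on 1 of the 3 tumour arrays, so the size of that change is uncertain, and its call was lost in 6 of 15 alternatives: with no filter, without any 1 of the tumour arrays, and without normal replicate 2 or 3. Pdgfra read 4.66 to 5.74 in tumour LEC and 9.13 to 11.75 in normal LEC.

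The lysosomal list covered the compartment of CD68 and LYZ2. None of its 16 genes passed, with a median difference of 0.02, and 14 of 16 were highest in tumour replicate 1, against 22.8% of the 11105 genes. Grn, the gene of progranulin, read 14.20 ± 0.19 in tumour LEC, against 14.06 ± 0.15 in normal LEC (SD, n = 3 each), and the protease gene Ctsl 14.25 ± 0.39 in tumour LEC, against 14.23 ± 0.23 in normal LEC. Lamp2, a protein of the lysosomal membrane, differed by 0.33 (SE 0.18) and Npc2, a cholesterol carrier, by 0.01 (SE 0.23). Ctsk, a collagen-degrading protease, differed by -4.25 (SE 1.12, adjusted p = 0.196) and read 6.46, 6.10 and 3.06 in tumour LEC and 10.98, 8.72 and 8.67 in normal LEC.

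Other macrophage genes mostly followed the same arrays. Of 30 listed, 28 were on the array and 20 above background somewhere. Of these 20, 16 had their highest value in tumour replicate 1, and for 17 the third normal array exceeded the other normal ones (22.8% and 27.0% of the 11105 genes). The list's median deviation was 0.91 in tumour replicate 1, -0.01 and 0.01 in tumour replicates 2 and 3, and -0.48, -0.52 and 0.17 in normal replicates 1, 2 and 3. Its summed log2 level was 125.9 to 168.1 in tumour LEC and 112.2 to 137.7 in normal LEC. Of the 28, 25 entered the test and none passed. The median difference of 0.31 over the 28 became 0.07 without tumour replicate 1. The groups were free of overlap for 11 of the 28, all higher in tumour LEC, against 0 of the 10 markers. Of all genes tested 32.4% were free of overlap, in either direction. Aif1 and Cx3cr1, markers of macrophages and microglia, were among the 11 but at background on all arrays. The smallest p-values belonged to Cd33, a lectin of myeloid cells, at 2.43 (SE 0.57, adjusted p = 0.162, limma), and Lcp1, an actin-bundling protein of leukocytes, at 2.29 (SE 0.55). Mertk, a receptor for apoptotic cells, differed by 0.99 (SE 0.46). The complement genes C1qa, C1qb and C1qc, named after their values were seen, read 7.95, 10.53 and 8.03 in tumour replicate 1, where the next highest arrays had 4.37, 7.47 and 4.51, in each case normal replicate 3.

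**Figure D3:**
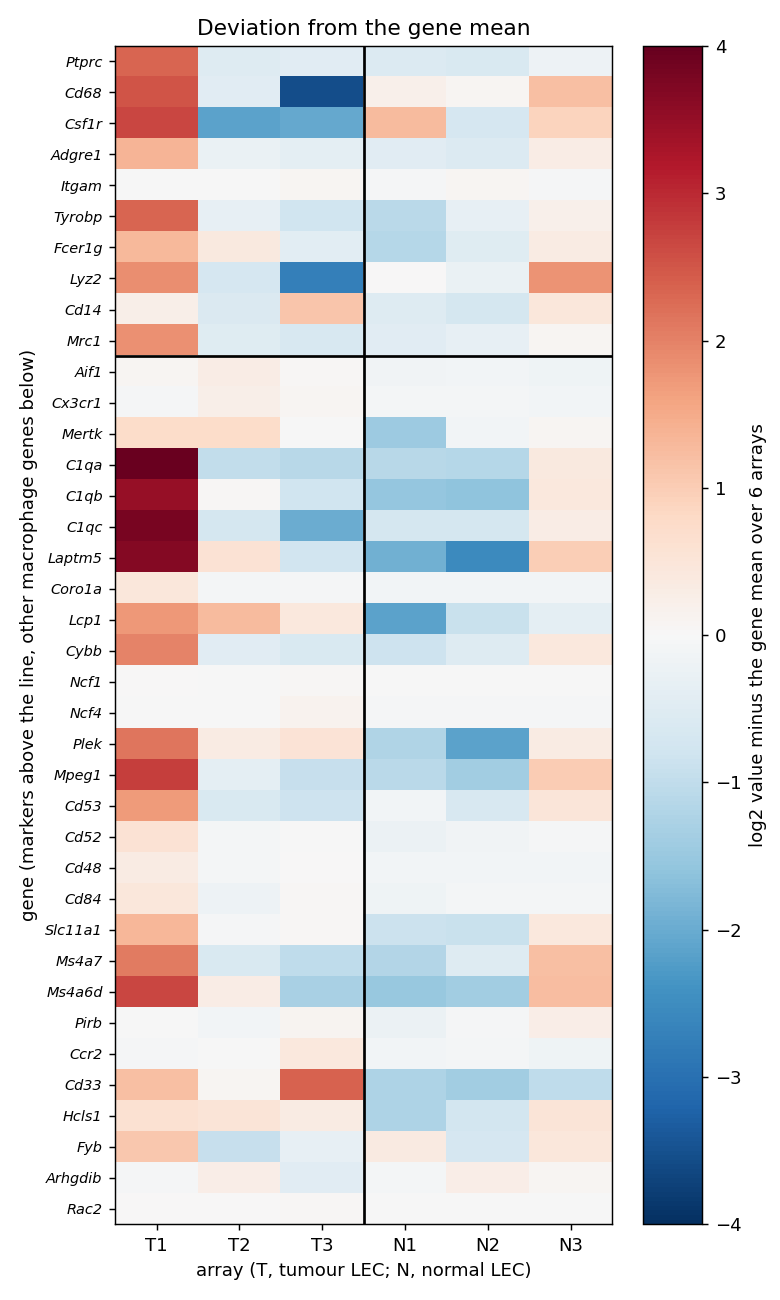
Log2 value minus the gene's mean over the 6 arrays (colour) for the 10 markers and 28 other macrophage genes (rows) on the tumour LEC arrays T1 to T3 and the normal LEC arrays N1 to N3 (columns). T1 is the reddest column, with 8 of the 10 markers at their highest there.

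Markers of other blood cells were mostly at background. This held on all 6 arrays for 10 of 11 genes of T and NK cells, 6 of 7 of B cells, 8 of 9 of neutrophils, 5 of 7 of mast cells, 4 of 8 of dendritic cells and 4 of 6 of platelets and red cells. In the same order, 2, 1, 2, 3, 4 and 2 genes of these lists entered the test, and none passed. Over all their genes on the array the median differences were 0.05, 0.07, 0.05, 0.08, 0.11 and 0.00. Of the dendritic genes, H2-Ab1 and Cd74, an MHC class II chain and the chaperone of class II, were at background on all normal arrays. H2-Ab1 read 4.77, 2.97 and 4.30 in tumour LEC, and Cd74 read 2.82, 3.59 and 3.99, so tumour replicate 1 was highest for H2-Ab1 and lowest for Cd74. Zbtb46, a transcription factor of dendritic cells and endothelium, differed by 0.48 (SE 0.23), and Batf3 was above background in tumour replicate 2 alone. Cd4 was the 1 gene of the T and NK list above background, with Cd8a and Cd247 at background. It read 3.69 to 4.29 in tumour LEC and 3.55 to 3.66 in normal LEC, close to the limits of 3.40 to 3.71. Its highest value was in tumour replicate 3, which had the highest limit. Ms4a1 was the 1 B cell gene with signal, on 1 tumour and 1 normal array, with Cd79a and Cr2 at background. Csf3r and S100a9 of the neutrophils, Ms4a2 of the mast cells and Ppbp of the platelets were at background on all arrays, and the mast cell protease Tpsb2 was above it in tumour replicate 3 alone. Itga2b, a platelet integrin chain, differed by -0.03 (SE 0.10). Pf4, a platelet chemokine that mouse macrophages also make, read 9.36, 7.47 and 7.10 in tumour LEC and 6.84, 9.54 and 9.56 in normal LEC. Of the keratinocyte list 5 of 8 were at background, 5 entered the test, none passed and the median was 0.05. The genes above background, Krt10, Krt5 and Epcam, differed by -0.24 (SE 0.11), 0.26 (SE 0.20) and -0.08 (SE 0.32). Endothelial genes had a median difference of 1.02 over 12 and lymphatic genes 0.18 over 8, with none passing. The smallest p-values of the endothelial list belonged to the transcription factor gene Ets1, at 1.04 (SE 0.15, adjusted p = 0.0778, limma), and to Eng, a co-receptor for TGF-beta family ligands, at 1.70 (SE 0.38). The bright genes Egfl7 and Emcn differed by 0.57 (SE 0.42) and 1.51 (SE 0.86), and Reln of the lymphatic list by -0.00 (SE 0.51). The endothelial list was also highest in tumour replicate 1, with a median deviation of 1.03, and for 12 of its 12 genes normal replicate 3 was the highest normal array, as it was for 8 of the 10 markers. Its summed log2 level was 120.7 to 128.9 in tumour LEC and 103.2 to 119.0 in normal LEC. The part of these lists in the marker values was not tested.

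**Figure D4:**
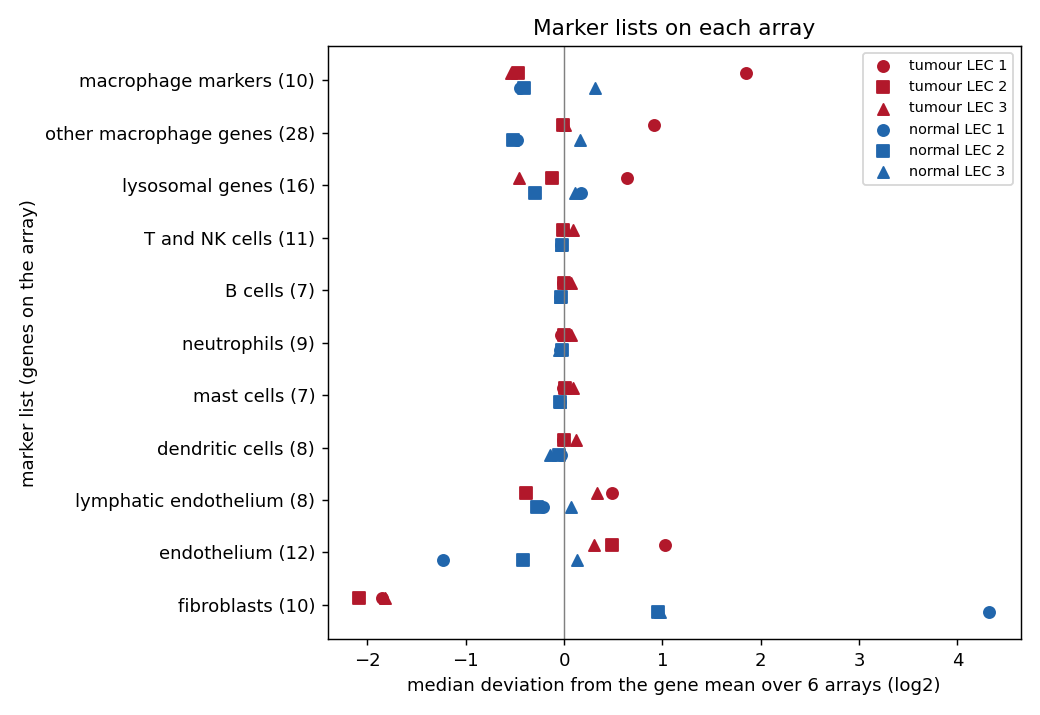
Median deviation from the gene means over the 6 arrays (log2, horizontal axis) of 11 marker lists (rows, number of genes in brackets), with a point for each tumour LEC array (red) and each normal LEC array (blue). The macrophage markers stand at 1.85 and the endothelial list at 1.03 in tumour LEC 1, and the fibroblast list at 4.32 in normal LEC 1. Most genes of the T, B and mast cell and neutrophil lists are at background, which keeps their medians near 0.

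Genes with the most similar profile were sought among 11096 genes above background on some array, by the root mean square difference between deviations from each gene's own mean over the 6 arrays. Nearest to the median profile of the markers were Cybb, a subunit of the phagocyte oxidase, at 0.19 log2 units, Stab2, a hyaluronan scavenger receptor, at 0.19, Rnf152 and D130037M23Rik at 0.21, and Me3 at 0.22. Cybb, above background in tumour replicate 1 alone, read 4.83, 2.37 and 2.24 in tumour LEC and 2.00, 2.31 and 3.26 in normal LEC, and Stab2 6.44, 4.38 and 4.02 in tumour LEC and 3.85, 4.11 and 4.62 in normal LEC. Ankrd37 (0.12), Asxl3 (0.15) and Ctsf (0.16) were nearest to Ptprc, and Stab2 (0.18), Hid1 (0.18) and N4bp2l1 (0.22) to Mrc1. The neighbours of Cd68 were farther off, with Cyp4b1 at 0.46, Lyz1 at 0.61 and Col4a5 at 0.64.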

How the data were processed

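Total RNA (50 ng per array, biotin-labelled with a kit for small amounts) of 3 tumour LEC and 3 normal LEC samples was hybridised to Affymetrix arrays that hold 45101 probe sets. The authors deposited 1 value for each probe set and array, on a log2 scale. RMA and GCRMA are both named, per the submitters' processing notes, and which of them gave these values is not given in the sources used here. Dim probe sets lie close to a floor, where differences are hard to read.

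Gene names came from the platform annotation held by GEO, updated by Entrez identifier in a RefSeq table (GRCm38.p6). 34945 had 1 gene, 932 several and 9160 none listed, and 204 of the 34945 had an identifier absent from that table. Control probe sets were left out. Probe sets with a mean above the 40th percentile (2.71) were kept, and the brightest stood for a gene, which gave 12954 genes. Groups were compared across all genes with R 4.3.3 and limma 3.58.1 (lmFit, eBayes), two-sided, with Benjamini-Hochberg adjustment. No exact permutation test was run, since its smallest two-sided p at this size is 0.1. The steps were tested on simulated data.

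The markers and the gene lists were chosen with earlier results of these data known. Named were all markers, fixed genes of their pathways and of endothelium and fibroblasts, in each list any gene that passed or, with none, the 2 of smallest p, the 3 brightest, and the nearest profiles; exceptions are marked, and 1 gene so chosen is not reported here. Alternatives covered the filter, normalization, variance model, array weights, probe set summary, replicate block and leaving out each array.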

Additional observations from a re-analysis of the deposited data

How the results depend on the processing

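Over 15 alternatives none of the markers passed the threshold. The count of genes that passed, 28 with the settings used, was 10 with no filter, 97 with a 60th percentile filter, 385 with array weights, and 4 to 82 with single arrays left out. With quantile normalization the split was 11 higher and 24 lower, against 6 and 22. Among the other gene lists the single call became 0 with no filter, 4 with the stricter filter, 10 with array weights and 0 to 6 with single arrays left out. The cause was not tested. Leaving out single arrays moved Ptprc between -0.0165 and 1.41, Adgre1 between -0.0843 and 0.78, Tyrobp between -0.15 and 1.40, Mrc1 between -0.33 and 0.92, Cd68 between -2.50 and 0.53, Lyz2 between -2.22 and 0.0706, Csf1r between -2.60 and -0.19, Cd14 between 0.08 and 0.93 and Fcer1g between 0.42 and 1.28. The lowest Ptprc value is a difference between arrays at background. With array weights Cd14 differed by -0.21, Mrc1 by -0.0651 and Csf1r by -2.20, and the median over the markers was -0.03. The mean of the probe sets gave -0.30 for Csf1r. With the replicate block 46 genes passed and no marker did. The labels state no pairing, so the numbers were not taken as pairs. Deviations from the group means correlated at 0.19, 0.33 and -0.004 for same-numbered arrays, and at -0.365 to 0.135 for the others. Ptprc, Itgam, Tyrobp and Adgre1 read at or near background on most arrays, which limits what their differences show.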

Other observations

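Normal replicate 3 stood apart from the other normal arrays for several scavenger receptor genes and for S100a8, all singled out after their values were seen. Cd163, a haemoglobin scavenger receptor of macrophages, read 2.77, 2.77 and 2.86 in tumour LEC and 2.75, 2.76 and 6.19 in normal LEC, above background on that 1 array. Marco, a receptor for bacteria and particles, read 4.50, 2.58 and 2.66 in tumour LEC and 3.65, 3.66 and 6.73 in normal LEC. Cd36, a fatty acid and lipoprotein receptor, read 5.28, 4.11 and 3.58 in tumour LEC and 3.38, 3.92 and 6.74 in normal LEC. S100a8, an alarmin of neutrophils and other myeloid cells, read 2.45, 2.65 and 2.79 in tumour LEC and 3.41, 2.86 and 5.98 in normal LEC. None of these passed the test.

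Tumour replicate 3, where Cd14 was highest and Cd68 and Lyz2 were lowest, had the highest values of Kit, a growth factor receptor of mast cells and other cells (4.03, 4.03 and 6.48 in tumour LEC, 3.96, 3.73 and 3.56 in normal LEC), and of Cd33 (6.70, 5.56 and 7.84 in tumour LEC, 4.24, 4.08 and 4.48 in normal LEC). Neither passed.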
